A study of Mus musculus with 2 samples.

Results

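A small set of DNase I footprints lay outside every called peak and were nonetheless found in both mice. They numbered 1986 of 288172 footprints in replicate 1 (0.689%) and 1948 of 224558 in replicate 2 (0.867%), on chromosomes 1 to 19 and X. Each was chosen by measured intervals: it overlapped no peak of any of the 4 deposited peak lists, 2 per mouse, and at least 50% of its length was covered by a footprint of the other mouse. The position outside peaks and the repeat in the other mouse are therefore the selection and not a result, and no test was made on them. Merged where they overlapped, these footprints made 2301 sites, of which 1571 held chosen footprints of both mice.

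DNase-seq had been run on the cortex of the left hemisphere from 2 mice, both B6CASTF1/J males of 36 days, with 1 library per mouse and 1 group in all. B6CASTF1/J is a first-generation hybrid of an inbred laboratory strain and a CAST strain, and the deposited lists do not separate the alleles of the parents. The labels number them as different males, although the donor label is the same for both. No treatment and no other genotype was given in the labels, so the comparisons made here are between classes of footprint within each mouse.

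DNase I cuts DNA where chromatin is open, and a peak is a stretch with many cuts. A footprint is a short gap in the cuts within open chromatin, where a bound protein can shield the DNA, although the enzyme's own preference for certain letters also shapes the cut pattern. Promoters of active genes are among the most open stretches of the genome, and zinc finger proteins of the Sp/KLF family and NRF1 are known to bind them at GC-rich sequence. CTCF is a zinc finger protein that organises chromatin loops and leaves a long footprint.

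Cortical tissue was supported by the peaks: 6 of 6 genes of cortical excitatory neurons had a peak within 1 kb of a start site in each mouse, and 0 of 6 genes of other tissues did. The longer peak list held 125119 peaks in replicate 1 and 103840 in replicate 2, and the stricter list 72021 and 59150. Read depth was not analysed here. The tissue is a mixture of cell types, and a site that is open in fewer cells cannot be told apart from one that is cut less often per cell.

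The sites with the widest footprints, the lowest false discovery rates and the greatest distance from a peak are shown first, because they show what kind of sequence the set holds. All letters are from the GRCm38 (mm10) reference, read 5′ to 3′ with coordinates 1-based and both ends included, and not from the mice. Capitals mark bases that lay in footprints of both mice.
Ppp6c, chr2:39226446-39226522, plus strand: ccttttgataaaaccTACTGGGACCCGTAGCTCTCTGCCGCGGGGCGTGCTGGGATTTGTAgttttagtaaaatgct
Chd6, chr2:161109222-161109297, plus strand: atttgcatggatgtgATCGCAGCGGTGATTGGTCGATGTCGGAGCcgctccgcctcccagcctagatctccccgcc
Cenpu, chr8:46551960-46552020, plus strand: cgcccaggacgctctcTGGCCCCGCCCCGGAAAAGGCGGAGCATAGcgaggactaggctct
Ddx50, chr10:62651423-62651481, plus strand: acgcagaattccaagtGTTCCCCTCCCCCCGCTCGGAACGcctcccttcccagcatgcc
Bcas3, chr11:85353118-85353162, plus strand: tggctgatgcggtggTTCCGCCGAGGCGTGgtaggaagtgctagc
Chromosome X site, chrX:75674353-75674433, plus strand: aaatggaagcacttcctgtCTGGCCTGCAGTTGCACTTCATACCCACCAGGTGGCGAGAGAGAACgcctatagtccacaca
Chromosome 16 site, chr16:9009576-9009659, plus strand: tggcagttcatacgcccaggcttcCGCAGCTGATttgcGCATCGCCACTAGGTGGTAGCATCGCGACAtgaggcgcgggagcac
Chromosome 3 site, chr3:5860276-5860352, plus strand: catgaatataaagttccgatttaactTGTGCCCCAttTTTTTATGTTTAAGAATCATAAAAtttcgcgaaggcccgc
Rnf44 far, chr13:54694559-54694602, plus strand: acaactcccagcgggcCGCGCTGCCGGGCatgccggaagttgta
Rnf44 near, chr13:54694418-54694459, plus strand: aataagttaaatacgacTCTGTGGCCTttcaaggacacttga

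The Ppp6c footprint spanned 46 bp in replicate 1 and 47 bp in replicate 2, and its centre lay 32 bp upstream of a start site of Ppp6c, the catalytic subunit of a protein phosphatase. The nearest peak was 20 bp away in each mouse. The Chd6 site lay 152 bp upstream of a start site of a neighbouring transcript and 176 bp upstream of a start of Chd6, a chromatin remodelling enzyme, and its footprints were 30 and 46 bp wide. These 2 sites shared their left end between the mice to the base.

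The chromosome X site was a single long footprint in each mouse. It was 46 bp wide in replicate 1 and 51 bp in replicate 2, it lay 31015 bp from the nearest annotated start site in intergenic sequence, and it held a match to the CTCF pattern. Its lowest false discovery rate was 1.13e-93 in replicate 1 and 7.35e-154 in replicate 2. The chromosome 16 site, also intergenic, held 1 footprint of 53 bp in replicate 2 and shorter pieces in replicate 1, the longest of 31 bp. The chromosome 3 site stood beside the highest of the peaks named here, at heights of 41.6 and 22.0, and on average 52.6% of the bases of its footprints were soft-masked as repeat sequence in the reference. Its lowest values, 6.79e-285 and 6.26e-176, were the smallest among the named sites. In replicate 1, 2 footprints of the set were listed at 0, but no site was at 0 in both mice, and sites were ranked by the mean of the mice. Its GC content was 35.6%, the lowest among the sites shown above.

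The Cenpu, Ddx50 and Bcas3 sites were named for their low values. Cenpu, which encodes a centromere protein, had 2 sites beside the same peak, 1 of 31 bp centred 38 bp upstream of the start site and 1 of 11 bp across the start site. The first had lowest values of 2.23e-138 and 5.10e-99 and lay 34 and 35 bp from the peak. The second had 2.16e-74 and 4.93e-47 and lay 123 bp from the peak in both mice. The Bcas3 footprint had the same ends in both mice, 15 bp wide and 27 bp upstream of the start site, with 1.97e-122 and 1.86e-99. The Ddx50 site, 232 bp upstream of the start of a DEAD-box RNA helicase gene, had 1.17e-163 and 1.86e-129.

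The 2 Rnf44 sites were the farthest from any peak. They lay 673 and 531 bp upstream of the start of Rnf44, a RING finger protein gene, at 434 and 294 bp from the nearest peak in replicate 1 and 433 and 292 bp in replicate 2. The farther 1 had lowest values of 4.09e-37 and 6.55e-23, and the nearer 1 had 2.45e-46 and 2.69e-24. The nearest peak on the longer list of each mouse had a height of 10.5 in replicate 1 and 5.64 in replicate 2. Distance from a peak thus did not come with values near the threshold at this gene.

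The footprints hugged the peaks they lay outside of, as did those outside peaks that did not repeat. The median distance to the nearest peak of any list was 23 bp in replicate 1 and 24 bp in replicate 2 (23.5 bp ± 0.707, SD, n = 2 mice), with quartiles of 9 and 49 bp and of 10 and 53 bp. Within 20 bp of a peak lay 47.5% and 45.8%, and within 100 bp 88.0% and 86.2%. In replicate 1, 62 touched a peak edge without overlapping it, and 44 did in replicate 2. Beyond 200 bp there were 15 and 20 footprints, all within 1 kb of a start site, and the farthest lay at 434 and 433 bp. No footprint of the set was isolated from peaks, and the distances of the mice almost coincided.

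**Figure D1:**
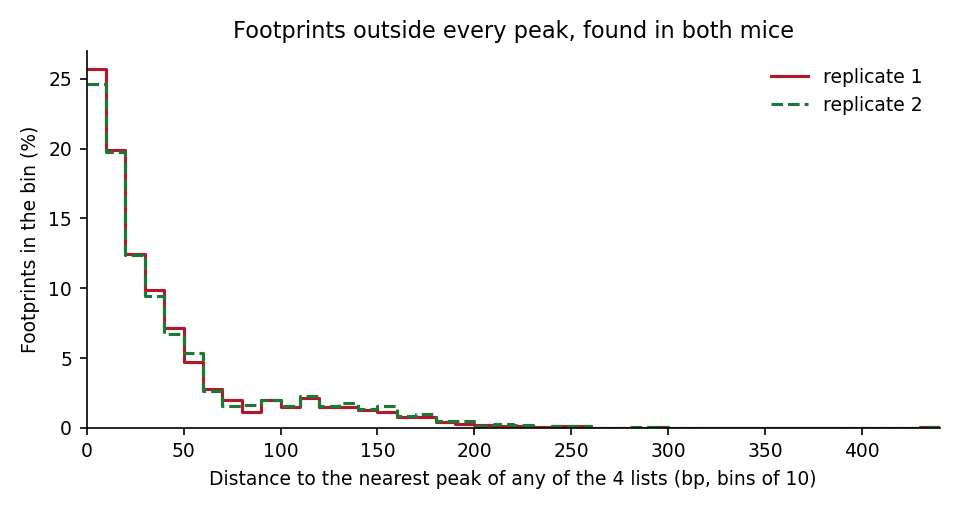
Share of the footprints (y axis, percent) in 10 bp bins of distance to the nearest peak of any of the 4 lists (x axis, bp), with 1 line per mouse. Both lines fall from the first bin and reach the axis near 200 bp, with single footprints out to 434 and 433 bp.

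Footprints outside peaks that did not repeat lay farther out in replicate 1, at a median of 42 bp, and at 24 bp in replicate 2. Within 100 bp of a peak lay 81.8% and 91.2% of these, and the farthest were at 510 and 390 bp. Closeness to peaks was therefore not particular to the set. Of all footprints outside peaks, 24245 in replicate 1 and 8707 in replicate 2, those that repeated made up 8.19% and 22.4%. Inside peaks the shares were 29.4% of 263927 and 33.9% of 215851. The number outside peaks differed between the mice far more than the number that repeated, which pairs footprints of the mice. At the edge of the rule, 77 and 60 members had exactly 50% of their length covered, and the closest footprints that missed it had 48.3% and 48.1%. Footprints covered by 40% to under 50% had median widths of 13 and 15 bp, distances of 23 and 28 bp and lowest values of 2.26e-29 and 3.00e-24, and those covered by 50% to under 60% had 12 and 12 bp, 24 and 22 bp, and 6.61e-29 and 6.34e-22.

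Every base of nearly all of these footprints was also listed by the authors as cut more often than background. The cut-rate list gives a false discovery rate for runs of bases and holds only bases at 0.05 or less. At least 1 base was listed in 1986 of 1986 footprints in replicate 1, beside 99.3% of all footprints, and in 1947 of 1948 in replicate 2, beside 99.4%. These shares are close to the background and say nothing particular about the set. The authors' file notes also name the cut-rate list among the sources of the footprints, so part of the overlap is built in. All bases were listed in 99.9% and 99.7% of the set, beside 98.4% of all footprints inside peaks in each mouse.

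At a false discovery rate of 0.001 or less the set stood above all footprints and close to footprints that repeated inside peaks. At least 1 base was at or under that value in 1938 footprints of replicate 1 (97.6%) and 1892 of replicate 2 (97.1%), beside 76.3% and 76.8% of all footprints. Under the same overlap rule inside peaks it was 92.3% and 90.5%, and at promoters alone the set had 99.3% and 98.7% and the repeated footprints in peaks 98.3% and 95.7%. The median of the lowest value per footprint was 7.26e-29 in replicate 1 and 1.04e-19 in replicate 2. For footprints that repeated inside peaks it was 8.13e-16 and 1.19e-11, for all footprints inside peaks 1.13e-07 and 5.00e-07, and for those outside peaks that did not repeat 6.32e-09 and 4.41e-06. At promoters the order of the set and the repeated footprints in peaks turned, with 3.46e-32 and 6.35e-22 in the set and 6.94e-36 and 1.55e-22 in peaks.

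Against footprints in high peaks the values of the set were also higher. Among footprints whose nearest or overlapping peak was in the highest 10% by height, the median lowest value was 1.39e-32 and 1.48e-22 in the set, and 1.44e-34 and 7.76e-29 inside peaks. Inside such peaks and repeated in the other mouse it was 1.21e-40 and 6.58e-31. Within the set the value followed the height of the nearest peak on the same mouse's longer list. The Spearman correlation was -0.67 over 1986 footprints and -0.72 over 1948. The value barely followed the distance to the nearest peak of any list, at 0.014 and 0.12, and this can be a different peak. Footprints beside 1 peak share that peak's cuts, so these correlations are a description. The nearest peak held a lower value than the footprint for 1953 of 1986 and 1915 of 1947. The peak's value is the lowest over all its bases, which are many more than those of a footprint. This count was therefore largely set by the measure and is not a result about the set.

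**Figure D2:**
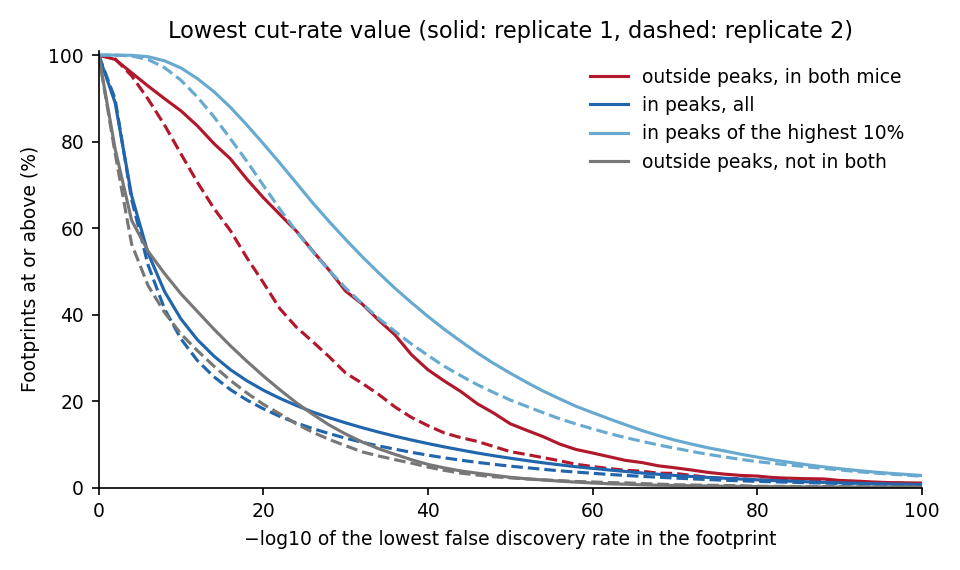
Share of footprints (y axis, percent) whose lowest false discovery rate is at or below a given value, on a −log10 scale (x axis), for 4 classes of footprint in each mouse. Within each mouse the set outside peaks lies above all footprints in peaks over most of the axis, and below the footprints in peaks of the highest 10% by height.

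The footprints and their peaks lay in 1 continuous stretch of listed bases. For 1980 footprints of replicate 1 (99.7%) and 1941 of replicate 2 (99.6%) the uninterrupted run of listed bases around the footprint also held a peak, as it did for 90.2% and 90.4% of those outside peaks that did not repeat. The run had a median length of 1200 bp in replicate 1 and 852 bp in replicate 2, against 714 and 449 bp around repeated footprints in peaks and 530 and 355 bp around all footprints in peaks. In like places the lengths were closer: at promoters 1281 and 920 bp in the set and 1159 and 729 bp for repeated footprints in peaks, and at peaks of the highest 10% by height 1273 and 913 bp against 1178 and 778 bp. The nearest peak itself had a median width of 240 bp in each mouse, so the listed stretch was several times longer than the peak called in it.

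Those peaks were among the highest of each library. Peak height is the authors' signal per peak, and heights are compared only within a mouse. The nearest peak is here that on the longer list of the same mouse. The nearest peak had a median height of 7.22 in replicate 1 and 4.75 in replicate 2, against 0.700 and 0.633 for all peaks of the longer list with overlapping peaks joined. It was in the highest 10% for 85.2% and 82.5% of the set (83.9% ± 1.91, SD, n = 2) and on the stricter list for 98.8% in each mouse. The highest 10% held 45.6% and 39.5% of the repeated footprints inside peaks, 25.3% and 24.6% of all footprints inside peaks, and 44.6% and 40.1% of those outside peaks that did not repeat. At promoters alone it held 94.0% and 90.5% of the set and 77.4% and 65.3% of the repeated footprints inside peaks. With the peaks split into 10 equal groups by height, 10.8% of the highest group in replicate 1 and 12.2% in replicate 2 had a footprint of the set beside them, and 1.10% and 1.56% of the next group did. In the lowest group the shares were 0.00824% and 0.0195%, or 1 and 2 peaks. Most such peaks had 1 footprint of the set (80.4% and 81.4%), and the largest numbers beside 1 peak were 8 and 7.

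**Figure D3:**
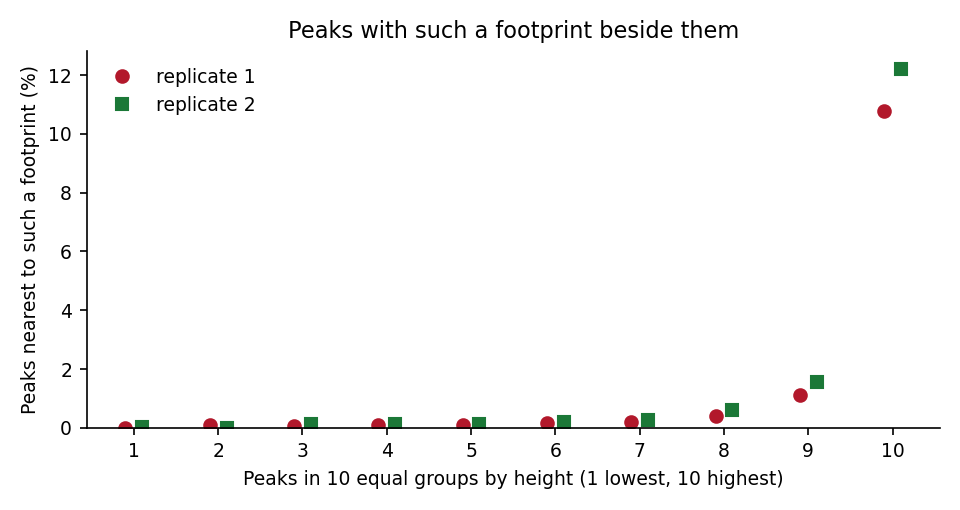
Share of peaks that are nearest to at least 1 footprint of the set (y axis, percent) by group of peak height (x axis, 1 lowest to 10 highest), with 1 symbol per mouse. The highest group stands at 10.8% and 12.2%, the next at 1.10% and 1.56%, and all others are under 1.

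Most of the footprints were at promoters. Their centres lay within 1 kb of an annotated start site for 1637 footprints of replicate 1 (82.4%) and 1619 of replicate 2 (83.1%), or 82.8% ± 0.484 (SD, n = 2). Inside peaks the share was 40.6% and 40.2% of all footprints and 50.04% and 49.9% of those that repeated, and for footprints outside peaks that did not repeat 58.8% and 52.9%. The median distance to a start site was 160 and 149 bp (154.5 bp ± 7.78). Inside peaks it was 2753 and 3152 bp for all footprints and 995.5 and 1016.5 bp for those that repeated. At promoters alone the order turned, with 115 and 109 bp in the set and 67 and 66 bp for repeated footprints inside peaks. Of the rest of the set, 6.85% and 6.57% lay in introns, 9.42% and 8.98% between genes and 1.31% and 1.33% in exons. At peaks of the highest 10% by height the promoter share was 90.9% and 91.1% in the set, 84.8% and 82.5% for repeated footprints inside those peaks, and 92.2% and 87.0% for footprints outside peaks that did not repeat.

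The promoter share rested on leaving out both lists of each mouse. With the stricter lists alone, the rule gave 4972 and 4912 footprints, of which 42.1% in each mouse were at promoters, at median distances of 2380.5 and 2444.5 bp from a start site. With the peaks widened by 100 bp on each side, 242 and 271 footprints remained, and 93.4% and 92.3% of these were at promoters.

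At promoters the set lay around the start site. Its median position was 36 bp upstream in replicate 1 and 27 bp in replicate 2, against 12 and 23 bp for all promoter footprints inside peaks. Positions of the repeated footprints inside peaks alone are not given here. In the 100 bp just upstream of a start were 20.2% and 20.5% of the promoter footprints of the set, against 29.8% and 33.7% of those inside peaks. In the 100 bp beginning at the start site and running downstream were 26.2% and 26.9%, against 21.1% and 19.8%. In the bin from 200 to 300 bp upstream the shares were 12.8% and 11.3%, against 4.54% and 4.84%. The set was chosen outside peaks, so differences in position from footprints inside peaks can follow from the rule alone. Upstream positions made up 61.7% and 59.3% in the set and 55.7% and 61.6% inside peaks, so no side was favoured in both mice relative to the footprints in peaks. Hadha, which encodes a subunit of the mitochondrial trifunctional protein of fatty acid oxidation, had a footprint of 28 bp across the start site in each mouse, 136 and 138 bp from a peak. The Cyth2 site, at the start of a guanine nucleotide exchange factor gene, had footprints of 18 and 20 bp at 9 and 16 bp from a peak.

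**Figure D4:**
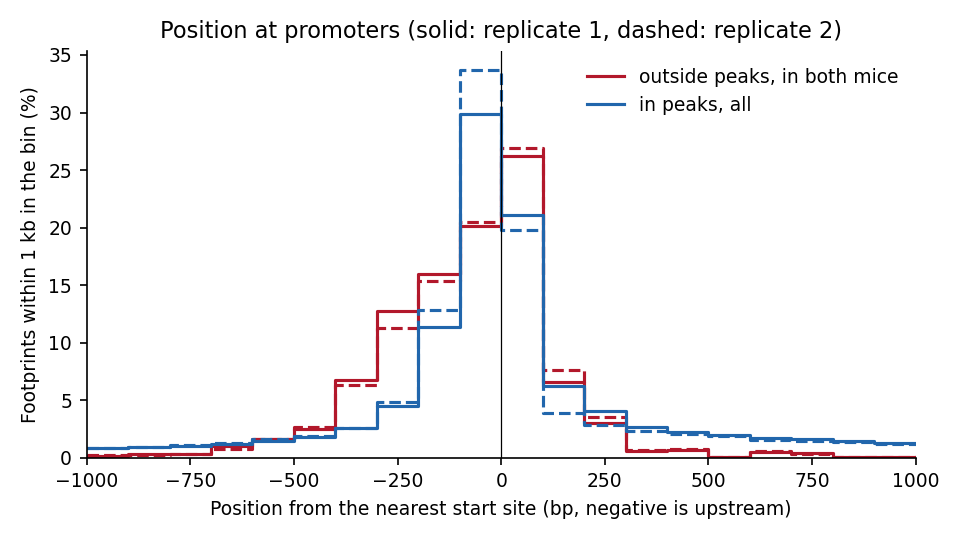
Share of the promoter footprints of each class (y axis, percent) in 100 bp bins around the nearest start site (x axis, bp, negative is upstream), for the set and for all footprints inside peaks in each mouse. The set has less in the bin just upstream of the start and more in the bin just downstream and from 200 to 300 bp upstream. The set was chosen outside peaks, so these contrasts can follow from the rule alone.

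By gene, a site of the set lay within 1 kb of a start of 1622 of 21755 protein-coding genes, or 7.46%. Housekeeping genes had such a site at 6 of 10: Actb (cytoplasmic actin), Hsp90ab1 (a chaperone), Ppia (cyclophilin A), Rpl13a and Rplp0 (ribosomal proteins) and Tbp (the TATA-binding protein), with 2 sites each at Rpl13a and Tbp. Of 14 genes induced by neuronal activity, 2 had one, Homer1, a postsynaptic scaffold, and Junb, a subunit of AP-1. Of 12 clock genes, Nr1d2, a nuclear receptor of the clock, had 2 sites and Tef, a bZIP factor, 1. None of 15 synaptic adhesion genes and none of 12 glial genes had one. The lists were chosen with earlier results of these data known, and their counts are a description.

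Of the 1622 coding genes with a site within 1 kb of a start, 120 had 3 or more, and clustering was not tested. Rnf44 led with 8, then Inpp5a, an inositol phosphate phosphatase, and Leng8 with 7 each. This order was chosen after the values were seen. Only 3 coding genes had 5 or more sites in the gene body, which were Leng8 with 6 in 11139 bp, Mpv17l with 5 in 46459 bp and the gene model Gm20388 with 12 in 4434882 bp. Per 10 Mb of chromosome the autosomes held 7.93 and 7.79 footprints of the set and the X chromosome 1.93 and 1.75, from 33 and 30 footprints. The X chromosome also had fewer footprints of any kind, and the set made up 0.555% and 0.656% of those, beside 0.692% and 0.872% on the autosomes.

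The footprints were short and closely placed in the mice. The median width was 10 bp in each mouse, with a range of 7 to 47 bp in replicate 1 and 7 to 53 bp in replicate 2. Widths of 20 bp or more made up 9.82% and 11.2%. Footprints in peaks that repeated by the same rule were wider, with medians of 12 and 13 bp and 24.96% and 29.40% of 20 bp or more. Footprints outside peaks that did not repeat had a median of 8 bp in each mouse. The rule asks for a share of the footprint's own length, so width and choice are linked, and the classes under the same overlap rule are the ones to set side by side.

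Both ends agreed to the base in 119 pairs, 5.99% of the set in replicate 1 and 6.11% in replicate 2. At least 1 end agreed in 35.5% and 35.1%, these pairs included. Among repeated footprints in peaks, both ends agreed in 4.61% and 4.89%. The centres of partners were a median of 2 bp apart. The partner in the other mouse was itself in the set for 1605 and 1594 footprints, overlapped a peak for 144 and 92, and otherwise lay outside peaks without being covered to 50%. Over the sites with both mice, the Spearman correlation between the mice was 0.74 for the lowest value (1568 sites), 0.63 for the width (1571 sites) and 0.81 for the height of the nearest peak. Both mice were aligned to 1 reference, and the sites were chosen for their repeat.

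The sequence was GC-rich at the footprint itself. The median GC content was 71.4% in each mouse, against 58.2% and 58.8% at 200 bp to either side and 62.5% inside peaks. For repeated footprints inside peaks it was 66.7% in each mouse, against 53.8% at 200 bp to either side. The drop to the flanks was therefore not particular to the set. At promoters alone the median was 72.7% and 73.3% in the set, and 71.4% in each mouse for all footprints inside peaks. For repeated footprints inside peaks at promoters it was 73.3% and 72.7%, so the set did not stand above these in both mice. In windows of 51 bp centred on the footprint, both strands searched, the Sp/KLF pattern GGGCGG was present in 19.4% and 19.1% of the set and in 10.5% and 10.6% of the windows inside peaks. At promoters the shares were 22.1% and 22.0% against 20.7% and 21.1%, a smaller gap than over all windows.

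The NRF1 pattern GCATGCGC was present in 1.26% and 1.59% of the set, against 0.65% and 0.70% inside peaks, and its reversal was not found in the set. YY1 (AAGATGGCG) was present in 0.96% and 0.77%, against 0.25% and 0.30%, and EGR (GCGTGGGCG) in 0.55% and 0.56%, against 0.17% and 0.18%. At promoters alone NRF1 stood at 1.34% and 1.67%, against 1.11% and 1.26%, YY1 at 1.10% and 0.86%, against 0.48% and 0.56%, and EGR at 0.61% and 0.62%, against 0.27% and 0.28%. These promoter shares of the set rest on 22 and 27, 18 and 14, and 10 and 10 windows. Patterns of distal neuronal sites were rarer in the set. The NeuroD E-box CAGATG was in 2.01% and 2.05%, against 5.91% and 5.98%, and AP-1 (TGANTCA) in 0.86% and 1.03%, against 2.22% and 2.66%. At promoters alone the E-box stood at 1.89% and 1.85%, against 2.43% and 2.46%, with 95% Wilson intervals of 1.34% to 2.68% and 1.30% to 2.63% that hold those shares. The pattern of REST, a repressor of neuronal genes, was in 0 of 1986 and 0 of 1948 windows, which allows shares of up to 0.151% and 0.154%, and in 0.014% and 0.012% of the windows inside peaks, so no difference was detectable. A match says only that the letters are there.

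CTCF matches were few. Besides the chromosome X site above, 3 named sites outside exons are shown on the strand of the match, with the match in capitals.
Slc29a3, chr10:60760620-60760673, minus strand: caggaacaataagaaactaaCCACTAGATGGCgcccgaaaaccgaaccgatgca
Frmd6, chr12:70825622-70825663, minus strand: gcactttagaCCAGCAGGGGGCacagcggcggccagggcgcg
Hmg20b, chr10:81350903-81350955, minus strand: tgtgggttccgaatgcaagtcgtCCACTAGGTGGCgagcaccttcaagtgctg

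The CTCF pattern, given by name because it uses letters beyond the 4 bases, was in 7 windows of replicate 1 (0.352%, 95% Wilson interval 0.171% to 0.726%) and 8 of replicate 2 (0.411%, 0.208% to 0.808%). Inside peaks it was in 2.06% and 2.53%, and at 500 bp to either side of the set in 0.126% and 0.103%. Away from promoters the set, with 349 and 329 footprints, had 1.43% and 1.22%, against 3.04% and 3.72% inside peaks. These shares of the set rest on some of the 7 and 8 windows, without an interval, so they do not establish a difference. In the set 9 sites had a match. The Slc29a3 site, 7852 bp upstream of a nucleoside transporter gene, had footprints of 22 and 24 bp at 35 and 34 bp from a peak, and the Hmg20b site, upstream of a gene for a subunit of a histone demethylase complex, had 20 and 22 bp at 177 and 178 bp. The Frmd6 footprints were shorter, 12 and 9 bp, at 116 and 118 bp from a peak. They held only part of the match, which ran to 70825653, past the footprint ends at 70825648 and 70825647. With the stricter lists alone to stay outside of, the CTCF share was 3.36% and 3.42%.

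Runs of 1 letter were a further shared feature, examined after the data were seen. Of the set, 196 footprints in replicate 1 (9.87%) and 181 in replicate 2 (9.29%) overlapped a run of at least 6 identical bases, or 9.58% ± 0.408 (SD, n = 2). The mean share was 21.3% for runs of at least 5 and 5.39% for runs of at least 8, and 5.03% when footprints had to lie outside the stricter lists only. 8 promoter sites with long runs, 4 of A or T and 4 of G or C, found in both mice and outside exons, with capitals as in the first sequences, show that some footprints were made of the run alone.
Hexim2, chr11:103133113-103133188, plus strand: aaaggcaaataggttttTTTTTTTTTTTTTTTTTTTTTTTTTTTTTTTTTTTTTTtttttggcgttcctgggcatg
Zbtb7a, chr10:81137233-81137290, plus strand: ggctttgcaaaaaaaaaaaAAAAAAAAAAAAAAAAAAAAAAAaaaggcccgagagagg
Gadd45b, chr10:80929788-80929832, plus strand: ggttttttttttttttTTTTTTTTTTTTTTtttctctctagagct
Atcay, chr10:81230921-81230966, plus strand: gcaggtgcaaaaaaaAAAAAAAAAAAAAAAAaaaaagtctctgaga
2900097C17Rik, chr2:156393051-156393095, plus strand: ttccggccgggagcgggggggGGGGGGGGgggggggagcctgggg
Commd8, chr5:72168319-72168363, plus strand: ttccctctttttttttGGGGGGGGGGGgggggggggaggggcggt
1700021F05Rik, chr10:43541130-43541183, plus strand: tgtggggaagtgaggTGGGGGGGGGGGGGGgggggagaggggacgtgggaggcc
Rfc2, chr5:134582542-134582596, plus strand: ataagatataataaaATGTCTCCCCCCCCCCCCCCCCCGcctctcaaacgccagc

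The Hexim2 site lay in a run of 47 T, at 9 and 7 bp from a peak, with footprints of 38 and 46 bp and lowest values of 8.87e-19 and 3.38e-57. Hexim2 encodes an inhibitor of the elongation factor kinase P-TEFb. The Zbtb7a site, 683 bp downstream of a start site of a zinc finger repressor gene, lay in a run of 37 A, and the Gadd45b site, 263 bp upstream of a stress-response gene, in a run of 31 T. The Atcay site, 110 bp upstream of a start site, lay in a run of 28 A, and its lowest values were weaker, 1.42e-07 and 8.38e-08. Among the G or C runs shown the longest, of 22 G, was 93 bp upstream of a start site of 2900097C17Rik, with the weakest values of these sites, 6.95e-05 and 1.12e-04. Commd8 had a run of 20, 1700021F05Rik 19 and Rfc2, a subunit of the replication clamp loader, 17. The footprints at Rfc2 were 24 and 25 bp wide and had lowest values of 5.53e-35 and 1.03e-22. All 8 sites were within 30 bp of a peak, and all their footprint bases were soft-masked as low-complexity or repeat sequence.

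Runs of A or T were several times as frequent in the set as in repeated footprints in peaks. They met 3.37% and 3.44% of the set (67 footprints in each mouse), against 0.68% and 0.76% of the repeated footprints in peaks, 0.62% and 0.65% of those at promoters and 0.68% and 0.78% of those in peaks of the highest 10%. Runs of G or C met 6.50% and 5.85%, against 2.70% and 2.69%, 3.96% and 3.97%, and 3.91% and 3.797%. Footprints outside peaks that did not repeat had 0.68% and 1.82% for A or T and 2.08% and 2.50% for G or C. Within the set, promoter footprints alone had 3.24% and 3.09% for A or T and 6.66% and 6.05% for G or C, and those beside peaks of the highest 10% had 3.01% and 3.30%, and 6.62% and 5.85%. The mice were close to each other in each of these classes except the footprints outside peaks that did not repeat, where replicate 2 was higher. At least 50% of the footprint lay in such a run for 5.84% and 5.60% of the set, and for 0.97% and 0.92% of the repeated footprints in peaks. No share of runs beside the footprints is given here. In 51 bp windows the word AAAAAAAA, or its reverse complement, was in 3.04% of promoter sites and 1.99% of windows 500 bp to either side. For CCCCCCCC these shares were 2.93% and 0.733%.

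**Figure D5:**
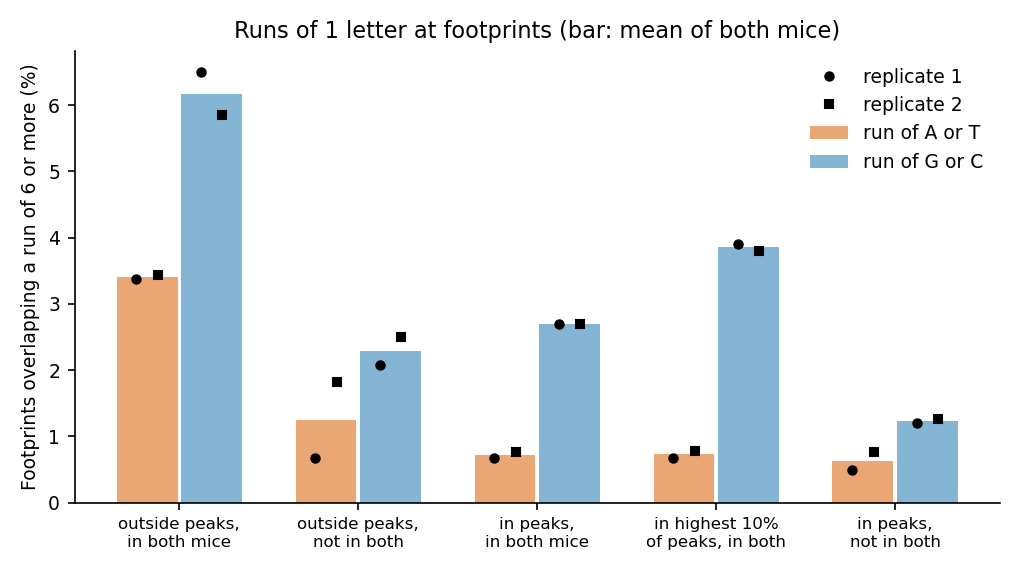
Share of footprints that overlap a run of at least 6 identical bases (y axis, percent) in 5 classes, with bars for the mean of both mice and a symbol for each mouse, split into runs of A or T and of G or C. The set outside peaks stands at 3.37% and 3.44% for A or T and at 6.50% and 5.85% for G or C, above the other classes.

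The A or T runs lay close to the peak edge. Within 20 bp of a peak they met 4.56% and 4.82% of the set (43 footprints in each mouse), and at 100 bp or more 0.83% and 0.74% (2 in each). G or C runs met 6.46% and 5.94% within 20 bp and 7.02% and 6.27% at 100 bp or more. The footprints with an A or T run had median lowest values of 8.87e-19 and 2.58e-17, and those without any run 3.27e-29 and 6.59e-20. Their nearest peaks had median heights of 5.25 and 3.43, against 7.30 and 4.77 without a run. More than 50% of the footprint was soft-masked in 89.6% of those with an A or T run in each mouse, in 57.4% and 55.3% of those with a G or C run, and in 9.39% and 8.998% of those without. Over the whole set it was 15.2% and 14.5%, against 7.18% and 7.11% of the repeated footprints in peaks. How well reads could be placed in these runs was not tested.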

How the data were processed

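DNase-seq of 2 mice was analysed from the lists the authors deposited on mm10, which per the file headers and notes were made for each library without pooling. Each deposited peak carries a signal value, the height, and how it was normalized is not stated. The authors' cut-rate list gives an adjusted p-value (false discovery rate, q-value) per run of bases and holds only values of 0.05 or less. The deposited footprint list gives a score of 0.01 throughout, which was not used. The aligner, the callers and the settings behind these lists were not given in the sources used here.

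Overlaps, distances and sequence matches were computed in Python 3.11.15 with NumPy 2.4.6 and pandas 2.3.3, with SciPy 1.17.1 for correlations and matplotlib 3.10.9 for figures. Distance is the number of bases between a footprint and a peak, and 0 means touching. Overlapping peaks of 1 list were joined for heights. Start sites are those of GENCODE M21, and sequence is GRCm38.p6. The procedures were tested on simulated data, where 197 of 197 planted gaps and 420 of 420 planted patterns were recovered.

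The members, lists, patterns and alternatives were chosen with earlier results of these data known. The sites named are the 5 widest, the 5 with the lowest values (mean of both mice), the 5 farthest from a peak, the 5 nearest a coding start and the 5 CTCF matches with the lowest values. Also named are the 10 coding genes with most sites in the body and the 10 with most per 100 kb among those with 5 or more, of which there were 3. Not every one is described. Sequences are shown only outside exons. The run examples and the genes with most sites near a start were added after the data were seen. Alternatives were other overlap rules, other peak lists, and other windows and thresholds. The values of each mouse are also given, with footprints still chosen by the lists of both. With 1 group of 2 mice no test across animals was possible. Errors are SDs of the mice, and Wilson intervals cover counting error only. Because the rule pairs footprints of the mice, SDs of the set do not measure the spread between independent animals.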

Additional observations from a re-analysis of the deposited data

How the results depend on the processing

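Values are means of both mice, set against 1967 footprints, 0.778% of all, a width of 10 bp, 23.5 bp to a peak, 154.5 bp to a start site, 99.97% with a listed base, 99.88% of bases listed, 82.8% at promoters, 71.4% GC and 0.382% with a CTCF match. Overlap of at least 50% of both footprints gave 0.648% of footprints, a width of 11 bp and 82.3% at promoters. An overlap of 1 bp gave 0.999%, 99.92% with a listed base and a CTCF share of 0.337%. Overlap of 90% gave 925 footprints, 0.363%, 9 bp, 22.5 bp to a peak, 165 bp to a start, 81.8% at promoters and a CTCF share of 0.445%. The stricter lists alone gave 4942 footprints, 1.96%, 9 bp, 82 bp to a peak, 2412.5 bp to a start, 99.25% with a listed base, 98.86% of bases listed, 42.1% at promoters, 63.4% GC and a CTCF share of 3.39%. Peaks widened by 100 bp gave 256.5 footprints, 0.102%, 10.5 bp, 136 bp to a peak, 204 bp to a start, 100% of bases listed, 92.8% at promoters, 74.2% GC and a CTCF share of 1.17%. Coding starts alone gave 176.5 bp, promoter windows of 500 and 2500 bp gave 79.0% and 86.1%, and a wider CTCF window gave 0.509%. At thresholds of 0.01 and 0.001, 99.06% and 97.35% had a listed base, and 99.92% had at least 50% of the footprint listed. The stricter lists and the widened peaks change which footprints qualify by construction, and for the other shifts the cause was not tested. The values of each mouse are those in the text. They ran from 1948 to 1986 footprints, 0.689% to 0.867%, 10 to 10 bp, 23 to 24 bp and 149 to 160 bp. The remaining shares were 99.95% to 100%, 99.81% to 99.95%, 82.4% to 83.1%, 71.4% to 71.4% and 0.352% to 0.411%. Footprints were still chosen with the lists of both mice, so neither mouse was analysed without the other. No paired analysis was possible because there is 1 group. The share with any run of at least 6, 9.58%, was 5.03% with the stricter lists, 5.39% for runs of at least 8 and 21.3% for runs of at least 5. The A or T run share, also added after seeing the data, ranged from 0.782% with widened peaks to 4.63% with 90% overlap. Read depth was not analysed here, so footprints missed in a shallower library cannot be told apart from footprints that are absent.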

Other observations

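Words of 8 letters were counted, after the data were seen, in 51 bp windows at the 1909 promoter sites of the set. They were also counted in windows of all promoter footprints inside peaks, repeated or not (107042 in replicate 1 and 86669 in replicate 2). Each word was counted together with its reverse complement. Of 533 words present in at least 15 sites, 39 were at least 2 times as frequent at the sites as inside peaks in both mice, and these were led by runs of A and of C. AAAAAAAA was in 3.04% of the sites, against 0.371% and 0.415% of the windows inside peaks, and in 1.99% of windows 500 bp to either side of the sites. CCCCCCCC was in 2.93%, against 0.573% and 0.556%, and in 0.733% of the flanking windows. AAAAAAAG was in 2.41%, against 0.273% and 0.279%.

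On chromosome Y, outside the rule, there were 71 footprints in replicate 1 and 67 in replicate 2. Of these 5 and 2 lay outside every peak, and 0 in each mouse repeated in the other.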
